A study of Mus musculus with 62 samples.

Results

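The calmodulin and CaM kinase genes described here were 9 of the 11121 genes of the table: *Calm2*, *Calm3*, *Nrgn*, *Camk2a*, *Camk2b*, *Camk2d*, *Camk2g*, *Camkk2* and *Camk4*. They were chosen by symbol, as rows whose Ensembl identifier maps to these names. The names were picked with earlier results of these data in view, and 8 other genes of the table whose symbols begin with Calm or Camk were not taken. The differences of the 9 genes are therefore given as a description. The false discovery rates (FDR) beside them show where a gene stood among all genes tested, and they are not independent support.

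The study exposed male wild-type C57BL/6j mice to multimodal chronic restraint stress (mCRS) or kept them without stress (CTR), tested the behavior of both groups, and collected the brain at 15 weeks of age. RNA was taken from prefrontal cortex (PFC) and nucleus accumbens (NAc, spelled Nac in the labels), both from 1 hemisphere of each animal, so the regions share mice, but the labels do not show which libraries belong to the same mouse. Bulk RNA barcoding and sequencing (BRB-seq), which reads the 3′ ends of polyadenylated transcripts, gave 30 PFC libraries, split evenly over CTR and mCRS (15 each), and 32 NAc libraries (16 each). Library totals lay between 945286 and 4857359 counts. Levels are counts scaled to library size (CPM) with TMM normalization over all 62 libraries, and they are compared between groups and not between genes. Ratios and shares of counts within a library are likewise compared only between groups.

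Calmodulin is the main calcium sensor of neurons. *Calm2* and *Calm3* encode the same protein. Calcium entering a dendritic spine loads calmodulin, which then activates CaM kinase II, a multimeric kinase of the postsynaptic density that is needed for long-term potentiation. Neurogranin, the product of *Nrgn*, holds calmodulin in the spine while calcium is low. A further branch runs through CaM kinase kinase 2 (*Camkk2*), which switches on CaM kinase IV (*Camk4*), a nuclear kinase that phosphorylates the transcription factor CREB.

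The promoters of *Nrgn* and *Camk2b* are shown because these genes differed between the regions in opposite directions. Of the 9 genes, 5 were matched in RefSeq's promoter table, which uses GRCm38.p6. Each sequence holds the 250 bases before the annotated start, read along the gene, and both genes lie on the minus strand. That of *Nrgn* is chr9:37552746-37552995 and that of *Camk2b* is chr11:6065749-6065998. Capitals mark motif matches on either strand. The SP1 box, which Sp-family factors bind, was searched as GGGCGG. The E-box, the core site of basic helix-loop-helix factors, was searched as CANNTG. The CCAAT box is named by its letters, and the TATA box, a core promoter element, was searched as TATAAA. The cyclic AMP response element, the site of CREB, was searched as TGACGTCA.
Nrgn: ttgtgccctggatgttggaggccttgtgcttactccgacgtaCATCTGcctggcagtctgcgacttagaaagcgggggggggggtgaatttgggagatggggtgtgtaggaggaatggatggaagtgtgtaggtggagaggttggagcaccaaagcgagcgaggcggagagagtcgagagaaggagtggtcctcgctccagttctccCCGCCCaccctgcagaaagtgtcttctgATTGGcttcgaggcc
Camk2b: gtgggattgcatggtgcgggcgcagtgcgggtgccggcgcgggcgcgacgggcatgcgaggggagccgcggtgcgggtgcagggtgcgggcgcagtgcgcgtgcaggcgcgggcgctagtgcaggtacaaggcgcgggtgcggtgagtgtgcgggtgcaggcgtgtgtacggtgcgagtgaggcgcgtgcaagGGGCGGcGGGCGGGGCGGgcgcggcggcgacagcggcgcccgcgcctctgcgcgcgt
The *Nrgn* window held 1 E-box, 1 SP1 box and 1 CCAAT box, none overlapping another. The *Camk2b* window held 3 SP1 boxes, of which the last pair share a base, and none of the other motifs. Neither window held the TATA box or the cyclic AMP response element. Part of the *Nrgn* window and all of the *Camk2b* window lie inside GENCODE gene models that begin farther upstream. Among all 32851 promoter windows of this length, 32.7% held an SP1 box, 66.2% an E-box, 33.9% a CCAAT box, 12.4% a TATA box and 1.55% the cyclic AMP response element. The share of G and C was 58.4% in the *Nrgn* window and 78.4% in the *Camk2b* window, beside a median of 52.4% over all windows. These matches describe letters and not binding.

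The regions were checked with lists of cell type markers. The summed level of 10 markers of striatal projection neurons had a median of 5392 CPM in NAc CTR and 5141 CPM in NAc mCRS, beside 805 and 908 CPM in the PFC groups. The library NAc CTR 7 stood apart, with a striatal sum of 576 CPM, inside the range of the PFC, where the next lowest NAc library had 2840 CPM. Its sum for 8 markers of cortical excitatory neurons was the lowest of all libraries, at 48.8 CPM. The library labelled NAc CTR 7 thus had low levels of the defining markers of both tissues. Some fold changes that it may affect are given with and without it, whereas count ratios and correlations are given only with it. The library NAc mCRS 10 held 21591 CPM of 2 choroid plexus genes, and no other library of the 62 exceeded 320 CPM. PFC mCRS libraries had fewer of the listed genes detected than PFC CTR libraries, 82.3% ± 6.2 against 87.1% ± 4.4, and a larger mean share of counts from mitochondrial DNA, 16.04% ± 3.64 against 12.88% ± 3.004 (SD, n = 15 each).

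Counts from the 9 genes made up more of the PFC libraries than of the NAc libraries. Their share of all counts ranged from 0.905% to 1.26% in PFC CTR, with a median of 1.12%, and from 0.926% to 1.22% in PFC mCRS, with a median of 1.02%. It ranged from 0.432% to 0.659% in NAc CTR (median 0.575%) and from 0.430% to 0.877% in NAc mCRS (median 0.630%). All PFC libraries lay above all NAc libraries in this share, and within each region the ranges of CTR and mCRS overlapped. The share is a sum in which genes with many counts weigh most, so it does not describe each gene. Mean levels in PFC CTR and NAc CTR were 4565 and 832 CPM for *Nrgn* and 3087 and 1754 CPM for *Calm2*. *Camk2b* (568 and 738 CPM) and *Camk4* (178 and 217 CPM) went the other way.

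**Figure D1:**
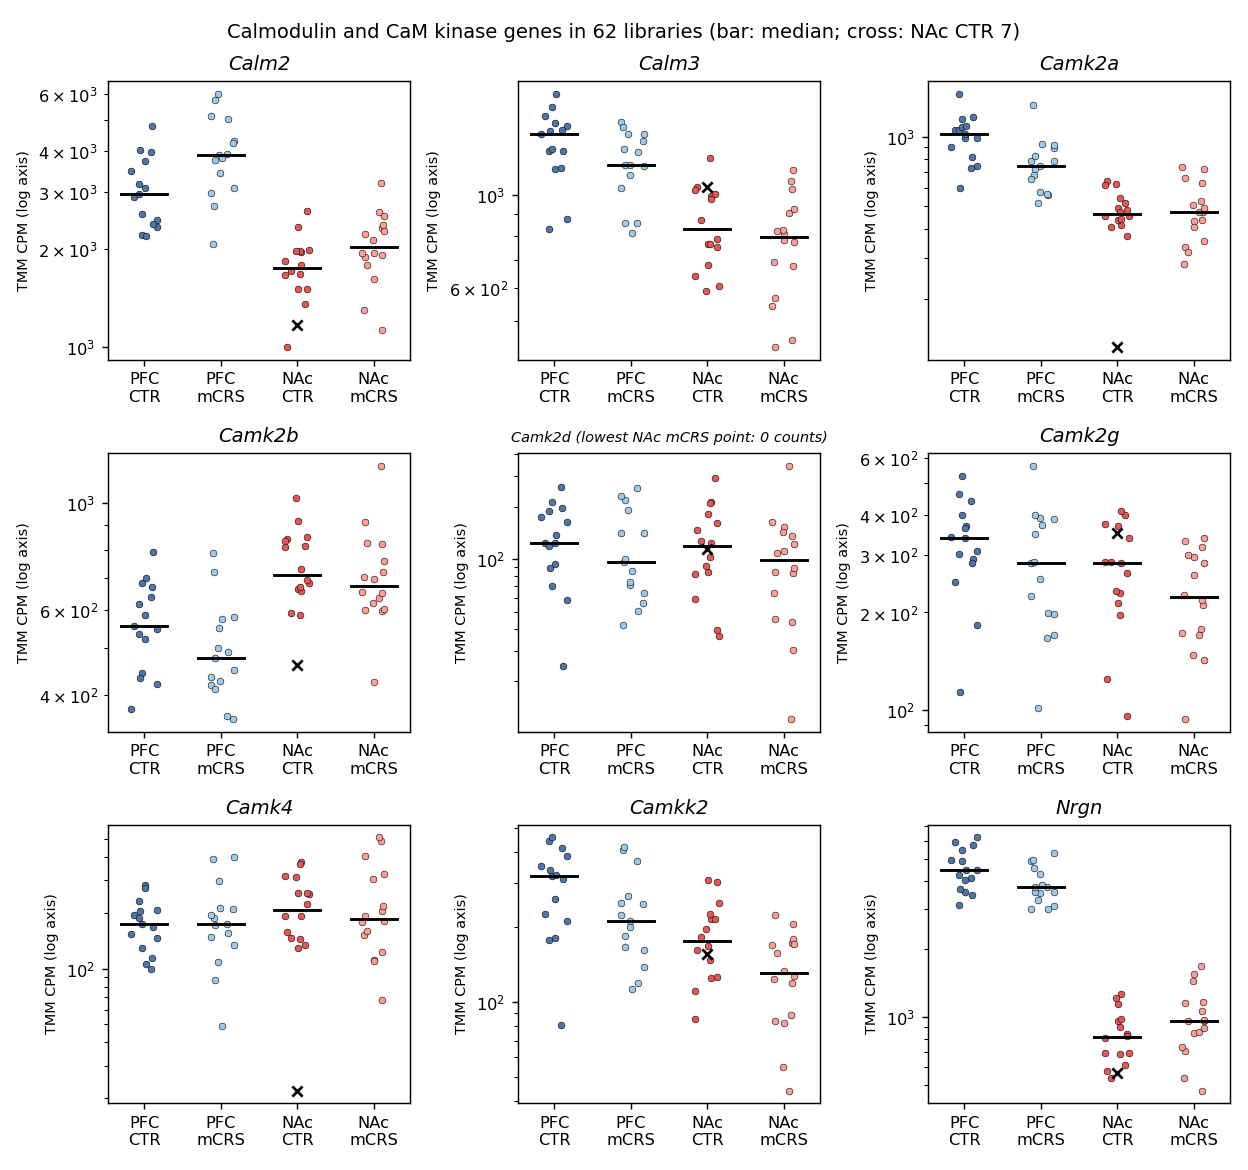
Each panel shows 1 gene and each point 1 library, with TMM CPM on a log axis for the 4 groups, the bar at the group median and the cross at the library NAc CTR 7. For *Nrgn*, the PFC points lie between 3008 and 6240 CPM and the NAc points between 472 and 1682 CPM, so the regions do not overlap, whereas for *Camk2d*, *Camk2g* and *Camk4* all 4 groups overlap.

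Between the regions of CTR mice, *Nrgn*, *Camk2a*, *Calm2*, *Camkk2* and *Calm3* were higher in the PFC and *Camk2b* was lower. At an FDR below 0.05 in edgeR's quasi-likelihood test, 5 of the 9 genes were thus higher, where 4.23% of 9932 genes were, and 1 was lower, where 2.09% were. The median log2 fold change of the 9 genes was 0.62, beside -0.02 over all genes. In mCRS mice the same 5 genes were higher, where 4.23% of 9452 genes were, and *Camk2b* was again the 1 lower gene, where 2.07% were. The median was 0.62 there as well, beside -0.03 over all genes. In bulk tissue, a lower level from fewer cells of a type and one from less RNA per cell cannot be told apart.

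*Nrgn*, the calmodulin reservoir of the spine, lies on chromosome 9 (37544492 to 37552904, minus strand, GRCm38). In PFC CTR its level ranged from 3119 to 6240 CPM, with a median of 4454, and in NAc CTR from 537 to 1262 CPM, with a median of 818. Every PFC library exceeded every NAc library, which held for 0.302% of the genes tested. Its log2 fold change was 2.45 ± 0.12 (SE), a 5.46-fold difference with a 95% confidence interval from 4.63 to 6.43. With an FDR of 1.0e-23, *Nrgn* had the smallest p of all 9932 genes in this comparison, although 53 genes had a larger fold change. Without NAc CTR 7 the log2 fold change was 2.42.

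Under mCRS, *Nrgn* ranged from 3008 to 5338 CPM in the PFC (median 3748) and from 472 to 1682 CPM in the NAc (median 962). Again no library of the NAc reached the PFC range, which held for 0.19% of 9452 genes. This gave a log2 fold change of 1.97 ± 0.13, a 3.92-fold difference (FDR 1.1e-17), and *Nrgn* again had the smallest p. The order of its levels was PFC CTR, PFC mCRS, NAc mCRS and NAc CTR, and neighbours within a region did not differ at an FDR below 0.05.

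Cell type markers differed between the regions too. Of the 8 markers of cortical excitatory neurons, 6 were higher in the PFC of CTR mice and 1 was lower (*Bcl11b*, which striatal projection neurons express too). Their summed level ranged from 899 to 1706 CPM in PFC CTR and from 48.8 to 916 CPM in NAc CTR. The striatal sum ranged from 474 to 1636 CPM in PFC CTR and from 576 to 8843 CPM in NAc CTR. Of the 10 striatal markers, 9 were lower in the PFC, and so were 5 of the 7 oligodendrocyte markers. How much of the difference in *Nrgn* or the kinases goes with cell composition was not tested.

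The calmodulin genes were both higher in the PFC. *Calm2* (chromosome 17, 87433412 to 87446935, minus strand) ranged from 2195 to 4793 CPM in PFC CTR, with a median of 2960, and from 996 to 2621 CPM in NAc CTR, with a median of 1749. All 15 PFC libraries exceeded the NAc median, and 9 exceeded every NAc library. This was a log2 fold change of 0.81 ± 0.12 (FDR 5.0e-07). *Calm3* (chromosome 7, 16915379 to 16924114, minus strand) ranged from 830 to 1749 CPM in PFC CTR (median 1398) and from 592 to 1229 CPM in NAc CTR (median 830). Here 11 of 15 PFC libraries exceeded every NAc library, and the log2 fold change was 0.62 ± 0.12 (FDR 0.000124).

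In mCRS mice *Calm2* ranged from 2072 to 6027 CPM in the PFC (median 3911) and from 1122 to 3208 CPM in the NAc (median 2036), a log2 fold change of 0.96 (FDR 2.9e-08). *Calm3* ranged from 814 to 1500 CPM in the PFC (median 1181) and from 434 to 1148 CPM in the NAc (median 796), a log2 fold change of 0.62 (FDR 0.000594). For both genes all 15 PFC libraries lay above the NAc median. Only uniquely mapped reads were counted, so reads of *Calm2* that match a copy elsewhere may be missing from its counts. Of the 70-base windows in the last 1000 bases of its transcripts, 5.26% had a perfect copy in another annotated gene. The other 8 genes had none.

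**Figure D2:**
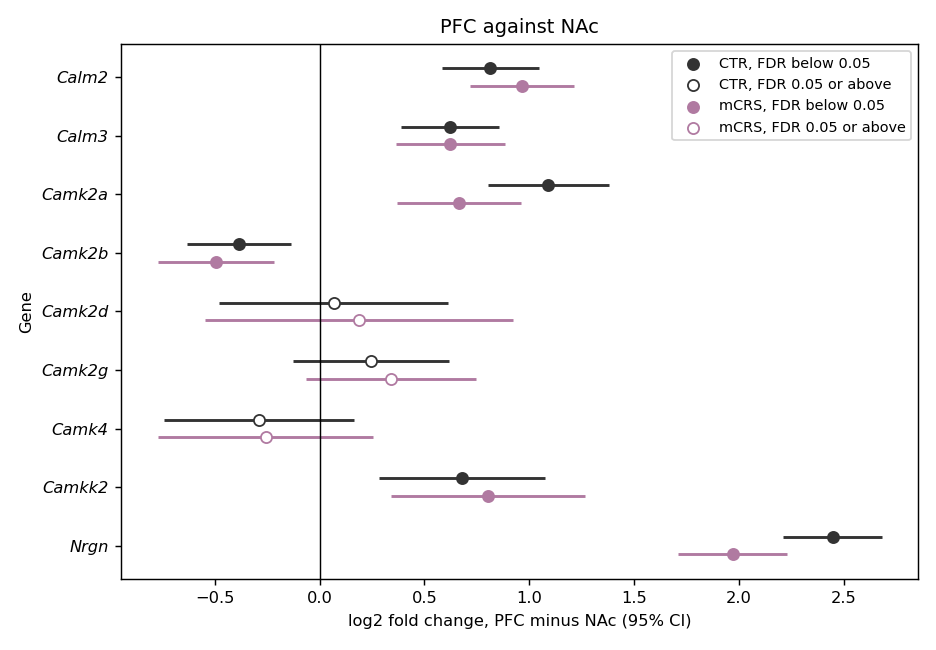
Points give the log2 fold change of the PFC over the NAc for each gene in CTR and mCRS mice, lines the 95% confidence interval, and filled points an FDR below 0.05. *Nrgn* stands farthest to the right at 2.45 and 1.97, and *Camk2b* is the one filled gene left of 0.

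Among the subunits of CaM kinase II, only *Camk2a* was higher in the PFC at an FDR below 0.05. *Camk2a* encodes the alpha subunit, the main form of forebrain excitatory neurons, and lies on chromosome 18 (60925618 to 60988152, plus strand). It ranged from 598 to 1528 CPM in PFC CTR (median 1020) and from 124 to 641 CPM in NAc CTR (median 465), and 14 of 15 PFC libraries exceeded every NAc library. The lowest value was that of NAc CTR 7, and the other 15 NAc CTR libraries had at least 375 CPM. The log2 fold change was 1.09 ± 0.14 (FDR 7.4e-08), and 1.03 without that library. Under mCRS the PFC range was 517 to 1365 CPM (median 745) and the NAc range 283 to 738 CPM (median 474). There 8 of 15 PFC libraries exceeded every NAc library, with a log2 fold change of 0.66 ± 0.15 (FDR 0.00132).

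*Camk2b* encodes the beta subunit, which anchors the holoenzyme to actin, and lies on chromosome 11 (5969644 to 6066362, minus strand). It ranged from 375 to 789 CPM in PFC CTR (median 556) and from 461 to 1023 CPM in NAc CTR (median 710). The ranges overlapped, with 14 of 15 PFC libraries under the NAc median. The log2 fold change was -0.385 ± 0.124 at an FDR of 0.0490, next to the threshold, and the call was lost in 21 of 31 fits that each left out 1 library, with FDRs between 0.0230 and 0.0996. Over all alternatives its FDR lay between 0.00337, that of DESeq2, and 0.682, that of the libraries numbered 1 to 8, and the log2 fold change stayed between -0.44 and -0.32. Under mCRS its range was 357 to 788 CPM in the PFC (median 478) and 426 to 1193 CPM in the NAc (median 673), and the log2 fold change was -0.50 ± 0.14 (FDR 0.0159). With the libraries split by number into 1 to 8 and 9 and above, *Camk2b* passed the test in neither subset of CTR or of mCRS mice.

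The delta and gamma subunits, which many tissues express, did not pass the test. *Camk2d* ranged from 24.4 to 258 CPM in PFC CTR (median 125) and from 36.3 to 292 CPM in NAc CTR (median 120), and had no count in NAc mCRS 3, a library of 1274799 counts, which allows up to 0.000235% of its counts (3 counts). Its log2 fold change was 0.07, with a 95% confidence interval from -0.48 to 0.61. *Camk2g* ranged from 114 to 526 CPM in PFC CTR (median 339) and from 96.2 to 410 CPM in NAc CTR (median 285). Its log2 fold change was 0.25, with an interval from -0.13 to 0.62. The values in mCRS mice were 0.19 for *Camk2d* and 0.34 for *Camk2g*, with FDRs of 0.917 and 0.484. The groups of both genes overlapped in both comparisons, and these intervals include both 0 and values close to those of *Calm3*.

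In the kinase cascade, the upstream kinase was higher in the PFC and the downstream kinase did not pass the test. *Camkk2* (chromosome 5, 122731170 to 122779409, minus strand) ranged from 80.6 to 459 CPM in PFC CTR (median 321) and from 85.5 to 308 CPM in NAc CTR (median 175). Of 15 PFC libraries, 9 exceeded every NAc library and 1 lay under all of them, and the log2 fold change was 0.68 ± 0.20 (FDR 0.0221). Its ranges in mCRS mice were 113 to 420 CPM in the PFC (median 211) and 44.0 to 223 CPM in the NAc (median 130), with a log2 fold change of 0.80 ± 0.23 (FDR 0.0199). The call of *Camkk2* in CTR mice was lost with the percentage of detected genes in the model (FDR 0.0543), with the replicate number as a block (FDR 0.0833) and in the libraries numbered 1 to 8 (FDR 0.191) or 9 and above (FDR 0.350), and its log2 fold change lay between 0.60 and 0.75 in these fits. In mCRS mice it was lost in the same subsets, with FDRs of 0.0608 and 0.766. *Camk4* (chromosome 18, 32934931 to 33191228, plus strand) ranged from 99.4 to 281 CPM in PFC CTR (median 175) and from 21.9 to 375 CPM in NAc CTR (median 208). The lowest of these was again NAc CTR 7, beside at least 129 CPM in the other NAc CTR libraries. The log2 fold change of *Camk4* was -0.29 (FDR 0.664), -0.37 without NAc CTR 7 (FDR 0.381), and -0.26 in mCRS mice (FDR 0.769).

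The order of the 4 groups by median level differed between the genes. For *Calm3*, *Camk2g* and *Camkk2* it was PFC CTR, PFC mCRS, NAc CTR and NAc mCRS, from highest to lowest. For *Calm2* it was PFC mCRS, PFC CTR, NAc mCRS and NAc CTR. For *Camk2a* it was that of *Nrgn*, with both PFC groups first. *Camk2b* and *Camk4* had the reverse order of regions, NAc CTR, NAc mCRS, PFC CTR and PFC mCRS, and *Camk2d* had PFC CTR, NAc CTR, NAc mCRS and PFC mCRS. Neighbours from the same region did not differ at an FDR below 0.05 for any of the 9 genes, and neighbours that differ in both region and treatment were not tested.

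The balance of the CaM kinase II subunits differed between the regions within a library, where depth cancels. The ratio of *Camk2a* to *Camk2b* counts ranged from 1.14 to 2.68 in PFC CTR (median 1.77) and from 0.269 to 0.815 in NAc CTR (median 0.652). Every PFC CTR library exceeded every NAc CTR library, and the lowest ratio was that of NAc CTR 7. Under mCRS the ratio ranged from 0.950 to 2.21 in the PFC (median 1.62) and from 0.385 to 1.13 in the NAc (median 0.699), and 12 of 15 PFC libraries exceeded every NAc library. *Camk2a* gave a median of 48.4% of all *Camk2* counts in PFC CTR and 28.9% in NAc CTR, whereas *Camk2b* gave 28.5% and 44.3%. The shares of *Camk2d* (6.21% and 8.00%) and *Camk2g* (16.6% and 17.8%) overlapped between the regions. These ratios combine genes chosen with results known, so they carry no test.

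**Figure D3:**
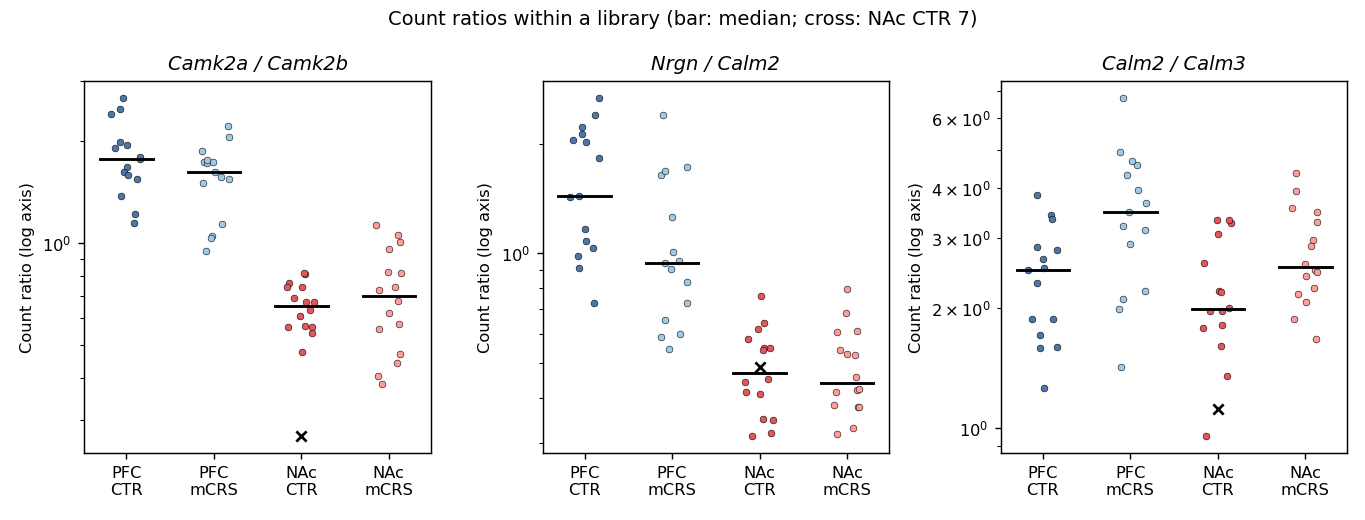
Points are libraries, bars group medians and the cross NAc CTR 7, with count ratios on log axes. The *Camk2a* to *Camk2b* ratio is above 1.1 in all PFC CTR libraries and below 0.82 in all NAc CTR libraries, and the *Calm2* to *Calm3* ratio has its highest median, 3.49, in PFC mCRS.

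The comparison of mCRS with CTR asked whether chronic stress altered these genes in either region. In the PFC, 0 of the 9 genes passed an FDR of 0.05 in edgeR, and 0% of all 8916 genes did. At an unadjusted p below 0.05, 1 gene was higher (*Calm2*), where 2.12% of all genes were, and 2 were lower (*Camk2a* and *Nrgn*), where 1.38% were. The smallest FDR among the 9 genes was 0.826, that of *Calm2*. DESeq2 gave the same 0 of 9, with adjusted p-values of 0.115 for *Calm2* and *Camk2a* and 0.318 for *Nrgn*, the lowest that any alternative gave for these genes. It gave no adjusted p for *Camk2d*, *Camk4* and *Camkk2*. The median log2 fold change of the 9 genes was -0.15, beside -0.01 over all genes.

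*Calm2* in the PFC ranged from 2195 to 4793 CPM in CTR (median 2960) and from 2072 to 6027 CPM in mCRS (median 3911). Of 15 mCRS libraries, 13 lay above the CTR median and 4 above every CTR library, but 1 lay below all of them. The log2 fold change was 0.40 ± 0.13, with a 95% confidence interval from 0.15 to 0.66 (p = 0.0023, FDR 0.826 in edgeR). With each library's percentage of detected genes in the model it was 0.15 ± 0.11 (p = 0.192). Over all 62 libraries, centred on their group means, the genes whose level went most closely with *Calm2* were *Rps27* (r = 0.70), a ribosomal protein gene, *mt-Nd4* (r = 0.66), a mitochondrial complex I gene, and *Tmsb4x* (r = 0.65). Centred likewise, *Calm2* had r = -0.24 with the percentage of detected genes and r = -0.12 with the log2 library total. The part of library quality in the *Calm2* difference was not tested further.

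*Camk2a* in the PFC had a median of 1020 CPM in CTR and 745 CPM in mCRS, and 14 of 15 mCRS libraries lay below the CTR median. The groups overlapped, with 4 mCRS libraries below every CTR library and 1 CTR library above every mCRS library. The log2 fold change was -0.36 ± 0.14, with an interval from -0.63 to -0.09 (p = 0.0100), and -0.28 with the percentage of detected genes in the model. *Nrgn* in the PFC had a median of 4454 CPM in CTR and 3748 CPM in mCRS, with 11 of 15 mCRS libraries below the CTR median. Its log2 fold change was -0.20 ± 0.10 (p = 0.0469). Of the 8 markers of cortical excitatory neurons, 7 had values below 0 and *Neurod6* had 0.41, with a median log2 fold change of -0.31 and none called. How these markers relate to the *Camk2a* and *Nrgn* values was not tested.

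*Camkk2* had the next smallest p in the PFC, with medians of 321 CPM in CTR and 211 CPM in mCRS and 12 of 15 mCRS libraries below the CTR median. Its log2 fold change was -0.35 ± 0.21, with an interval from -0.77 to 0.08. For *Calm3*, *Camk2b*, *Camk2d* and *Camk2g* the log2 fold change lay between -0.17 and -0.14, and for *Camk4* it was 0.15. The intervals of these 5 genes all included 0.

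In the NAc, 0 of the 9 genes passed an FDR of 0.05, where 0.00986% of 10141 genes did. At an unadjusted p below 0.05, *Calm2* was higher, where 0.986% of genes were, and *Camkk2* was lower, where 1.06% were. All 9 genes had an FDR of 0.99995. DESeq2 called none of the 9 either. The median log2 fold change of the 9 genes was -0.05, beside -0.01 over all genes.

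*Calm2* in the NAc had a median of 1749 CPM in CTR and 2036 CPM in mCRS, and 13 of 16 mCRS libraries lay above the CTR median. Its log2 fold change was 0.24 ± 0.11 (p = 0.0325), and 0.22 without NAc CTR 7. *Camkk2* ranged from 85.5 to 308 CPM in NAc CTR (median 175) and from 44.0 to 223 CPM in NAc mCRS (median 130). There 13 of 16 mCRS libraries lay below the CTR median, and the log2 fold change was -0.48 ± 0.21 (p = 0.0291). Without both NAc CTR 7 and NAc mCRS 10 it was -0.56, and the value for *Calm2* was 0.21.

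*Nrgn* in the NAc had a median of 818 CPM in CTR and 962 CPM in mCRS, with 12 of 16 mCRS libraries above the CTR median and a log2 fold change of 0.27 ± 0.14 (p = 0.0597). The libraries numbered 1 to 8 gave 0.52 and those numbered 9 and above gave 0.01. *Camk2a* had a log2 fold change of 0.06, which was 0.00 without NAc CTR 7, and *Camk2b* one of -0.05. The other 4 genes lay between -0.27 (*Camk2d* and *Camk2g*) and 0.10 (*Camk4*).

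**Figure D4:**
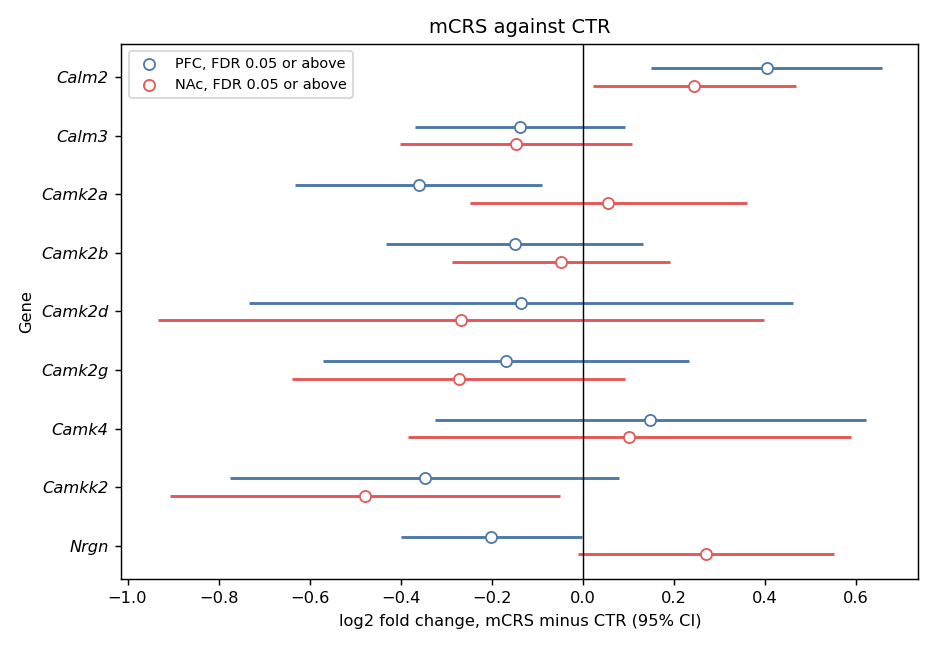
Points give the log2 fold change of mCRS over CTR for each gene in the PFC and the NAc, with 95% confidence intervals as lines, and all points are open because no FDR was below 0.05. *Calm2* lies right of 0 in both regions (0.40 and 0.24), and *Nrgn* lies left of 0 in the PFC (-0.20) and right of it in the NAc (0.27).

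Whether the stress difference itself differed between the regions was tested as an interaction over all 62 libraries. In edgeR 0 of the 9 genes passed an FDR of 0.05, where 0.00907% of 11025 genes did, and each had an FDR of 0.99997. *Nrgn* had an interaction of -0.48 ± 0.17 on the log2 scale (PFC minus NAc, p = 0.0070) and *Camk2a* one of -0.43 ± 0.20 (p = 0.0403), where 1.64% of genes had a negative interaction at an unadjusted p below 0.05. Without NAc CTR 7 the values were -0.46 for *Nrgn* and -0.37 for *Camk2a*. For *Nrgn* the libraries numbered 1 to 8 gave -0.85 and those numbered 9 and above gave -0.07. The other 7 genes lay between -0.11 (*Camk2b*) and 0.15 (*Calm2*).

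*Calm2* counts were set against *Calm3* counts within each library. Their ratio ranged from 1.26 to 3.83 in PFC CTR (median 2.49) and from 1.42 to 6.74 in PFC mCRS (median 3.49). In the NAc it ranged from 0.950 to 3.33 in CTR (median 1.98) and from 1.67 to 4.36 in mCRS (median 2.53). The groups overlapped in both regions, and 11 of 15 mCRS libraries in the PFC and 14 of 16 in the NAc lay above the CTR median. The ratio of *Nrgn* to *Calm2* counts had medians of 1.44 and 0.942 in the PFC (CTR, then mCRS), and of 0.468 and 0.440 in the NAc.

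Other genes of calcium signaling were read from lists by role. The counts of each list in CTR mice stand beside 4.23% of all genes called higher in the PFC and 2.09% called lower. In CTR mice, 2 of 8 CaM kinase inhibitors and calmodulin-binding proteins were higher in the PFC and 1 was lower. The CaM kinase II inhibitor *Camk2n1* (1.26) and *Basp1* (1.05) were higher, and *Pcp4l1*, a relative of the calmodulin regulator Pcp4, was lower (-2.00).

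Of 18 calmodulin-dependent enzymes and pumps, 4 were higher in the PFC of CTR mice and 2 lower. *Adcy1*, a calcium-stimulated adenylyl cyclase, had a log2 fold change of 2.28 (FDR 6.6e-13), and the phosphodiesterases *Pde1a* and *Pde1b* differed in opposite directions, with 1.58 and -1.74. The calcineurin subunit *Ppp3r1* had 0.57. Of 15 partners and substrates of CaM kinase II at the synapse, 4 were higher and 0 lower: *Syn1* (0.73), *Rph3a* (0.95), *Kalrn* (1.04) and the NMDA receptor subunit *Grin2a* (1.07). None of 8 CREB pathway genes passed the test.

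Of 12 other EF-hand calcium sensors, 4 were higher and 1 lower, with *Ncald* at 1.82, *Vsnl1* at 1.28, *Cabp1* at 1.12 and *Hpcal4* at 0.89. The median log2 fold changes of these 5 lists lay between -0.31 and 0.17, beside -0.02 over all genes. In mCRS mice the counts higher and lower were 2 and 1 of 8, 6 and 1 of 16, 3 and 1 of 15, 0 and 0 of 7, and 3 and 2 of 12, in the same order of lists. Over all genes tested in mCRS mice, 4.23% were called higher and 2.07% lower. *Adcy1* (2.04), *Camk2n1* (1.03), *Ncald* (1.98) and *Vsnl1* (1.59) were higher there too.

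**Figure D5:**
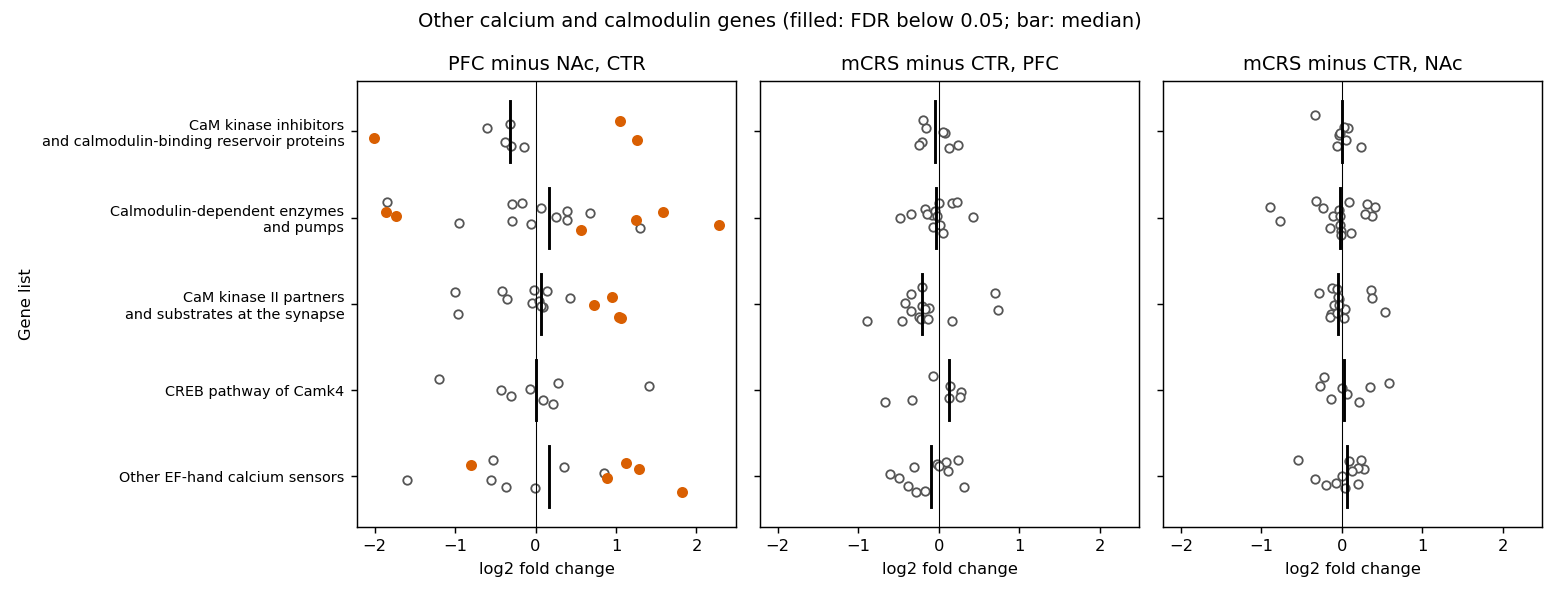
Each point is 1 gene of a list, placed at its log2 fold change, with filled points at an FDR below 0.05 and a bar at the list median, for PFC against NAc in CTR mice and for mCRS against CTR in each region. Filled points appear on both sides of 0 in the region panel, from *Pcp4l1* at -2.00 to *Adcy1* at 2.28, and the stress panels hold none.

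Under mCRS, 0 genes of these 5 lists passed an FDR of 0.05 in either region. The partners of CaM kinase II had the median farthest from 0 in the PFC, -0.20, with 3 of 15 genes above 0 and none at an unadjusted p below 0.05. *Dlg4*, which encodes the scaffold PSD-95, had a log2 fold change of -0.45 and the AMPA receptor subunit *Gria1* one of -0.34. In the PFC, *Adcy1* (-0.34), *Crebbp* (-0.67) and *Vsnl1* (0.25) had an unadjusted p below 0.05 in edgeR. Each was the 1 such gene of its list, of 14, 7 and 12 tested, where 1.38% of all genes were lower and 2.12% higher. In the NAc *Nos1*, the neuronal nitric oxide synthase, did (-0.90), as 1 of 17 tested, where 1.06% of all genes were lower. No other gene of these lists had such a p in either region.

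As a set, the 9 genes did not vary together from library to library. After centring on the 4 group means, the 36 pairs had correlations of log2 CPM from -0.38 (*Camk2b* with *Camk2d*) to 0.46 (*Camk2a* with *Camk4*), with a median of -0.00 and 17 pairs above 0. *Camk2a* and *Camk2b* had 0.42. Pairs among *Camk2a*, *Camk2b*, *Camk4* and *Nrgn* all lay above 0, the lowest at 0.24 (*Camk2a* with *Nrgn*). These genes were picked from the 36 pairs after the values were seen. How often other genes of the table give such values was not tested. Among genes with a mean log2 CPM of at least 5, the most similar to *Camk2a* was the active zone gene *Rims1* (0.66), to *Camk2b* the adenylyl cyclase *Adcy5* (0.50), to *Camk4* the gene *Crym* (0.53) and to *Nrgn* the GTPase gene *Arf3* (0.51). These correlations are over 62 libraries that share a preparation, and NAc CTR 7 is one of them. That library had the lowest *Camk2a*, *Camk2b* and *Camk4* of its group and the next to lowest *Nrgn*. Such shared low values can raise the correlations among these genes. The correlations were not computed without NAc CTR 7, so how far they rest on it was not tested.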

How the data were processed

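Counts of the 62 libraries were used as deposited. The authors mapped reads with STAR to GRCm38/mm10 and counted uniquely mapped reads per gene with htseq, given as version 0.9.1 in the submitters' processing notes. The labels name no molecular identifiers, so the limit that a count of 0 allows covers counting error only, whereas standard errors and intervals of fold changes carry the spread between libraries. PFC samples of poor quality had been removed by the authors. Both regions came from the same mice per the study's methods, but the labels do not tie libraries to a mouse, so the region and interaction tests took all libraries as independent.

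Comparisons used edgeR 4.0.16 (R 4.3.3) on the libraries of the groups compared, with TMM, filterByExpr with its defaults, and the quasi-likelihood F test. P-values were adjusted by Benjamini-Hochberg over all genes tested, with calls at an FDR below 0.05. The interaction used all 4 groups. Correlations used log2 CPM with a prior count of 2. Coordinates are GENCODE's for GRCm38, and 11120 of 11121 identifiers matched a symbol. The fits were tested on simulated data.

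The genes, the lists and the tests were chosen with earlier results of these data known. Text names all 9 genes, up to 4 genes of smallest p per list and comparison, and the closest genes by correlation. Results of 1 list are not reported here. Alternatives were RLE and upper-quartile normalization, DESeq2 1.42.0, other filters, library sizes without mtDNA genes, the replicate number as a block, the percentage of detected genes as covariate, all libraries in 1 fit, splits by library number and single libraries left out. Fits without NAc CTR 7 in the interaction, without NAc mCRS 10 in mCRS mice and without both were added after the values were seen.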

Additional observations from a re-analysis of the deposited data

How the results depend on the processing

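The direction and call of *Nrgn*, *Calm2* and *Camk2a* between the regions in CTR mice held under every alternative run. Of 9 genes, 5 were higher in the PFC of CTR mice in all fits without 1 library, and 3 in the libraries numbered 1 to 8, where *Calm3* and *Camkk2* did not pass. In mCRS mice the 5 became 2 in the libraries numbered 1 to 8 and 3 in those numbered 9 and above. *Camk2b* as the 1 lower gene became 0 in CTR mice without a filter, with at least 10 counts in 50% of libraries, with the percentage of detected genes as covariate, with all 62 libraries in 1 fit and in either split, and it ranged from 0 to 1 in fits without 1 library. The call was lost without any one of PFC CTR 1, 2, 3, 4, 5, 8, 10, 12, 13 and 15 and NAc CTR 2, 3, 4, 6, 8, 9, 10, 11, 13, 14 and 16. With the covariate *Camkk2* did not pass either (FDR 0.0543). In mCRS mice *Camk2b* became 0 in either split. Single libraries were left out in turn in CTR mice and in both stress comparisons, not in mCRS mice or the interaction. The cause was not tested, and a split holds fewer libraries.

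Deviations of same-numbered libraries had median correlations between -0.01 and 0.01, and at most 1 pair of a comparison exceeded 0.1. Between regions, the same number gave the best match for 0 of 15 pairs in CTR mice and 3 of 15 in mCRS mice. Whether equal numbers mark the same mouse cannot be read from this, since regions of 1 mouse may deviate separately and mCRS and CTR libraries come from different mice. With the replicate block in CTR mice, *Camkk2* had an FDR of 0.0833 and *Camk2b* one of 0.126, so 4 genes were higher and 0 lower, and no other call changed. The block turned the *Camk4* interaction to -0.064.

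No call among the 9 genes changed between mCRS and CTR. Over all genes in the PFC, edgeR called 0 and DESeq2 4 higher and 1 lower, and in the NAc edgeR called 1 and DESeq2 0. Between regions, 420 genes were higher and 208 lower in CTR mice, 468 and 347 with DESeq2, and 129 and 63 in the libraries numbered 1 to 8. The counts in mCRS mice were 400 and 196, 449 and 321 with DESeq2, 148 and 65 in the libraries numbered 1 to 8, and 193 and 107 in the others. Directions turned only for genes that were not called. In the libraries numbered 1 to 8 this was so for *Calm3* in the PFC (0.0077), *Camk2a* (-0.023) and *Camk2b* (0.10) in the NAc, *Camk2d* (-0.42 in CTR, -0.14 in mCRS) and *Camk4* (0.065) between regions, and the *Camk4* interaction (-0.38). In those numbered 9 and above it was so for *Camk4* in the NAc (-0.23) and the interactions of *Calm3* (-0.21), *Camk2d* (-0.11), *Camk2g* (-0.052) and *Camkk2* (-0.12). With the percentage of detected genes as covariate it was so for *Camk4* in the NAc (-0.073), *Camk2d* between regions (-0.013 in CTR, -0.011 in mCRS) and the *Camk2d* interaction (-0.0055). The *Calm3* interaction, 0.00055, was -0.017 with upper-quartile normalization, -0.015 without a filter and -0.035 without NAc CTR 7, where that of *Camk2g* was 0.054. Without NAc mCRS 10 as well they were -0.061 and -0.0018. Single libraries turned *Camk4* in the NAc (-0.013 to 0.18) and *Camk2d* between regions (-0.026 to 0.20).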
